A study of Mus musculus with 8 samples.

Results

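The genes described here are 9 factors, receptors, cytokines and marker genes of the type 3 program of lymphocytes, the program of Th17 cells and of innate lymphoid cells that make interleukin 17. They were Rora, Ahr, Il23r, Il17a, Il17f, Il22, Il17re, Tmem176a and Tmem176b, taken from the 19937 genes that had a probe set annotated to exactly 1 symbol. Of the 9 genes, 8 had such a probe set, 1 each, and so none had to be chosen among several. Il22 was on 2 probe sets annotated to more than 1 symbol and has no value here.

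RNA came from regulatory T cells (Tregs), the FoxP3+ CD4 T cells that restrain immune responses, sorted from mice labelled Bcl6-/- (KO) and from wild-type (WT) mice. Bcl6 is a transcriptional repressor of lymphocytes. Before RNA was taken, the cells of both groups spent 16 h under CD3 and CD28 stimulation. Each of the 8 Affymetrix whole-transcript arrays received 100 ng of RNA. There were 4 KO-labelled arrays (KO 1A, KO 1B, KO 2A and KO 2B) and 4 WT arrays (WT 1A, WT 1B, WT 2A and WT 2B), with 2 preparations in each group and 2 arrays, A and B, from each preparation. Strain, age and sex of the mice were not given in the sources used here, nor whether preparations or letters were separate animals, and the p-values therefore rest on the spread among these 8 arrays, which may be technical. The design text gives Bcl6-/- for the mice and names no allele and no Cre driver.

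Rora encodes a nuclear receptor that binds ROR response elements and, in mouse CD4 T cells, takes part in switching on Il17a. Ahr encodes the aryl hydrocarbon receptor, a ligand-activated factor that enters the nucleus, pairs with Arnt and switches on detoxifying enzymes, and that type 3 lymphocytes need for Il22. Both factors are also known from tissue Tregs that make no interleukin 17, Rora in skin and fat and Ahr in the gut. Il23r encodes the specific chain of the interleukin 23 receptor, which sustains Th17 cells, and Il17a and Il17f their signature cytokines. Il17re encodes the receptor chain for interleukin 17C, and Tmem176a and Tmem176b a pair of related membrane proteins found in dendritic cells and in type 3 lymphocytes.

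The promoters show which of these genes carry the letters that ROR factors and AHR bind near their start. The RefSeq promoter table (GRCm38.p6) held 8 of the 9 genes, with Ahr missing. It gave 1 promoter window for Rora, and whether these cells use that start was not tested. The 250 bases before each start were searched on both strands for AGGTCA, the half-site of a ROR response element, and for GCGTG, the core of the AHR response element. The first was found before 3 of the 8 genes, Il17a, Il17f and Il23r, against 14% of all 32851 promoter windows, and the second before 1, Rora, against 28.2%. The 3 windows with a ROR half-site are printed because they belong to Th17 genes next in line to Rora, and that of Rora because its level differed most. Each runs 5′ to 3′ along the gene, with the motif in capitals, as TGACCT or CACGC where it lies on the opposite strand.
Il17a, chr1:20730655-20730904, plus strand: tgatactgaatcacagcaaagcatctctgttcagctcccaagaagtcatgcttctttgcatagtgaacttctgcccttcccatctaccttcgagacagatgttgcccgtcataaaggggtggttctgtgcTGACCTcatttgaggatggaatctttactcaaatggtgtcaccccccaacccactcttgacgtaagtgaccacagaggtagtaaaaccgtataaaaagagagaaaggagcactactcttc
Il17f, chr1:20784271-20784520, minus strand: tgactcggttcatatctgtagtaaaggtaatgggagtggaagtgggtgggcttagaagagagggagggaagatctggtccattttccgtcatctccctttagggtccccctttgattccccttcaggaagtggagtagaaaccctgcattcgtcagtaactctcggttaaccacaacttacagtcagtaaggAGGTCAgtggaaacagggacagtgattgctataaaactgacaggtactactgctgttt
Il23r, chr6:67491856-67492105, minus strand: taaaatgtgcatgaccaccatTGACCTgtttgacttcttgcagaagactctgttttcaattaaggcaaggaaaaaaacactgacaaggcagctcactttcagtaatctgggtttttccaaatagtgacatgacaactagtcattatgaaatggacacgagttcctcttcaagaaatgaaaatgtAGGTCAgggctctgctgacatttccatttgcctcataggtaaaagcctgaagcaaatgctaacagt
Rora, chr9:68653536-68653785, plus strand: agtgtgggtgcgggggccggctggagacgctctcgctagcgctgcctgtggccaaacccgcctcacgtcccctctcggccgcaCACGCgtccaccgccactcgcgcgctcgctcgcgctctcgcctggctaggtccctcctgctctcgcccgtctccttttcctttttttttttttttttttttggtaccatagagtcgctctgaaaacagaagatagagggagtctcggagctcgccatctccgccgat
The half-site began 120 bases before the start of Il17a, 58 bases before that of Il17f, and 229 and 66 bases before that of Il23r. A match is a string of letters and not a measured binding site. Il17a and Il17f are neighbours with 0 protein-coding genes between them. Tmem176a and Tmem176b run on opposite strands and start so close together that their promoter windows of 300 bases share up to 219 bases.

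The arrays set limits on every value below. Over all probe sets, log2 values had an SD of 1.84 to 1.87 in the KO 1 arrays and 1.61 to 1.65 in the KO 2 arrays, against 1.56 to 1.70 in WT. Dim probe sets shifted with that spread: the median of 1027 olfactory receptor genes, which T cells are not known to use, was 5.42 to 5.43 in KO 1 and 5.81 to 5.86 in KO 2, against 5.61 to 5.98 log2 in WT. Y-linked transcripts (Eif2s3y, Kdm5d, Uty) averaged 4.62 to 4.80 log2 under the KO label, against 6.94 to 8.30 under the WT label, and a part of sex in any difference cannot be told apart from that of genotype. Bcl6 itself was at 9.0, 8.82, 8.54 and 8.51 in the KO-labelled arrays, against 7.97, 8.36, 8.33 and 7.86 in WT. No source used here says which part of the gene was removed or where its probes lie, so that level does not check the labels. Foxp3, Il2ra, Ctla4, Ikzf2, Cd4 and Cd3e, the markers of a Treg, averaged 10.52 to 11.22 log2 per KO-labelled array, against 9.79 to 10.55 per WT array. Foxp3 was higher by 0.84 (SE 0.33), Il2ra by 1.49 (SE 0.47) and Ctla4 by 0.93 log2 (SE 0.40), with no overlap of the groups. Ikzf2, Cd4 and Cd3e overlapped, at 0.55, 0.42 and 0.17. None of the 6 passed the test over all genes given below.

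Setting KO-labelled against WT Tregs addresses which type 3 genes are at another level in Tregs labelled as lacking Bcl6. The factors Rora and Ahr were close to double their WT level in the KO-labelled arrays, and Il23r, Il17a, Il17f, Il17re, Tmem176a and Tmem176b lay between -0.42 and 0.25 log2 of theirs. None of the 8 passed the test over all genes. With limma and Benjamini-Hochberg adjustment, 0 were called higher, against 0.12% of all genes, and 0 lower, against 0.015%. Rora and Ahr were the 2 members with an unadjusted p under 0.05, as were 6.19% of all genes. For 4 members no KO-labelled array fell within the WT range, as for 8.78% of all genes; Rora, Ahr and Tmem176b were on the higher side, against 6.67%, and Il17a on the lower, against 2.11%. The median difference was -0.03 over the 8 members and -0.06 over all genes.

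**Figure D1:**
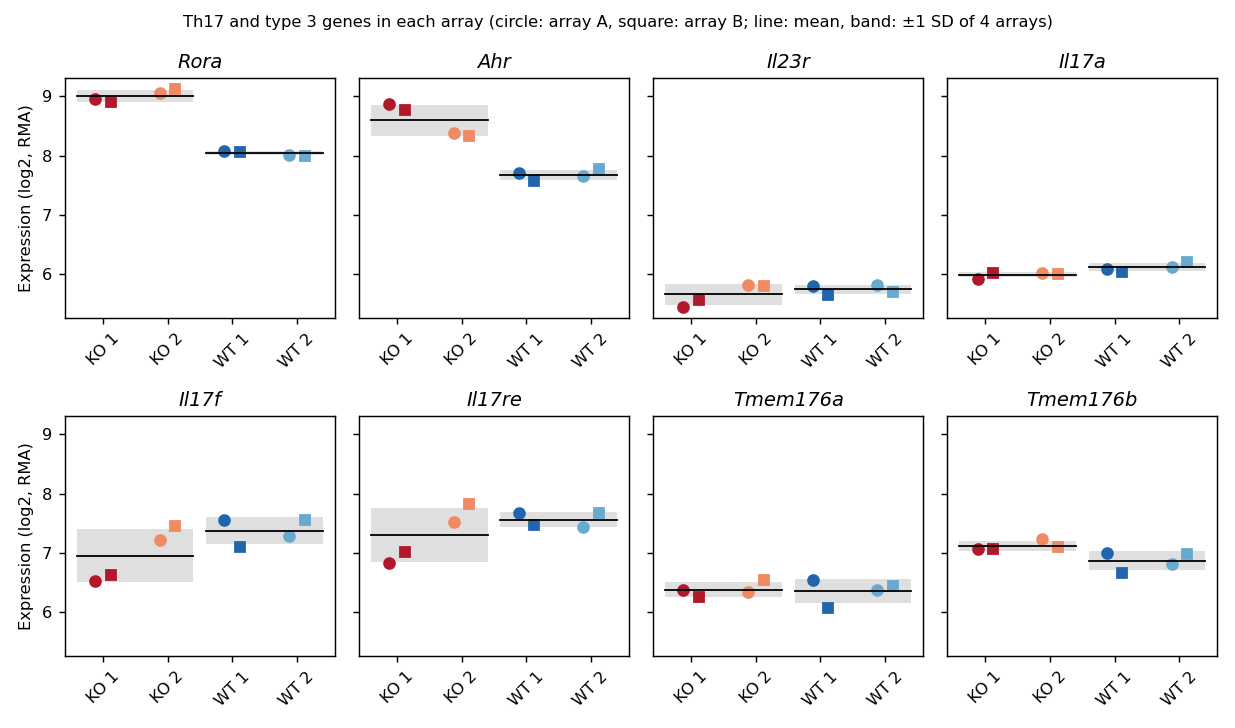
Log2 expression (RMA) of the 8 measured genes in each of the 8 arrays, by preparation, with circles for arrays A and squares for arrays B, and a line and band for the mean ± 1 SD of each group of 4. Rora sits between 8.91 and 9.12 in KO-labelled arrays, against a WT range between 8.0 and 8.07 in WT, Ahr shows a like gap, and the other genes overlap or nearly meet.

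Rora (probe set 10586700) was at 8.95 and 8.91 log2 in KO 1 and 9.05 and 9.12 in KO 2, against 8.07, 8.07, 8.02 and 8.0 in WT. All 4 KO-labelled arrays lay above all WT arrays, and KO 2, not KO 1, held the higher values. The group means were 9.01 ± 0.10 in KO-labelled and 8.04 ± 0.04 in WT arrays (SD, n = 4 each), a difference of 0.97 log2 (SE 0.21) or 1.96-fold. The unadjusted p was 6.0e-04, the 67th smallest of all genes, and the adjusted p from limma 0.179.

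Ahr (probe set 10400006) was at 8.88 and 8.77 in KO 1 and 8.39 and 8.34 in KO 2, against 7.71, 7.58, 7.66 and 7.77 log2 in WT. Again no KO-labelled array came down to the WT level, but here KO 1 held the higher values. The means were 8.59 ± 0.27 in KO-labelled and 7.68 ± 0.08 in WT arrays (SD, n = 4 each). The difference was 0.91 log2 (SE 0.23) or 1.89-fold, with an unadjusted p of 0.00172 and an adjusted p from limma of 0.306. For both factors the adjusted p fell under 0.05 where arrays were taken as independent, at 0.0140 for Rora and 0.0414 for Ahr, and it was 0.552 and 0.610 where each preparation was 1 value; over all 26 alternatives it ran from 3.2e-07 to 0.999 for Rora and from 9.0e-08 to 0.999 for Ahr.

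Set against the same 4 WT arrays, Rora was 0.89 log2 higher in KO 1 and 1.05 in KO 2, and Ahr 1.14 and 0.69. A limma fit with 1 mean for each preparation, in which only the spread between arrays A and B counts, called Rora in KO 2 (SE 0.13, adjusted p = 0.00209) and in KO 1 (SE 0.13, adjusted p = 2.9e-04). It called Ahr in KO 2 (SE 0.13, adjusted p = 0.0366) and in KO 1 (SE 0.13, adjusted p = 5.5e-05). The call of Ahr in KO 2 was lost after each array was centred on its median (adjusted p = 0.13). After quantile normalization that of Rora in KO 1 was lost, at 0.24 log2 (adjusted p = 0.116), and Ahr in KO 1 was at 0.57 (adjusted p = 0.00571). As deposited, Rora and Ahr were the 2 of 8 members called higher in KO 2, against 0.687% of all genes. In that preparation 0 were called lower, against 0.115% (0.803% in either direction). The members were chosen with earlier results of these data known, so this count is no test of them as a set. In KO 1 Rora and Ahr were the 2 called higher, against 30.4% of all genes. Il17f and Il17re were called lower there, against 37.4% (67.8% in either direction). The members' 4 calls of 8 thus did not stand above that background. After rescaling, Tmem176b was also called higher in KO 1, against 17.4% of all genes after quantile normalization and 37.1% after median centring. It was at 0.37 (adjusted p = 0.0307) and 0.41 (adjusted p = 0.0112). These tests compare preparations, not genotypes, and both use the same WT arrays. WT 1 minus WT 2 was 0.06 for Rora (SE 0.16) and -0.07 for Ahr (SE 0.16), and 0.0% of all genes were called there.

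As deposited, the order of the preparations differed between the factors. Rora was -0.16 log2 in KO 1 minus KO 2 (SE 0.16, adjusted p = 0.382), and Ahr 0.46 (SE 0.16, adjusted p = 0.0258), while 58.8% of all genes were called between KO 1 and KO 2, 27.7% higher in KO 1 and 31.0% lower. Of the 431 genes with a KO minus WT difference at least that of Rora, a limit chosen after its value was seen, 5 had a difference from WT in KO 2 no smaller than in KO 1, and Rora was among them. The median ratio of the KO 2 to the KO 1 difference over those genes was 0.333, against 1.18 for Rora. Over the 545 genes with a difference at least that of Ahr it was 0.316, against 0.599 for Ahr. Scaling bears on this: after quantile normalization the difference of Rora from WT was 0.24 for KO 1 and 1.05 for KO 2, KO 1 minus KO 2 was -0.80 (adjusted p = 0.0091) for Rora and -0.15 (adjusted p = 0.447) for Ahr, so that the call of Ahr was lost. Of the 602 genes with a difference at least that of Rora on that scale, 36 had a difference in KO 2 no smaller than in KO 1. After centring each array on its median, Rora differed from WT by 1.11 for KO 1 and 1.01 for KO 2, and Ahr by 1.36 and 0.65. After quantile normalization Ahr differed by 0.57 for KO 1 and 0.72 for KO 2. The factors thus shared an order on both scales, with KO 1 higher after centring and KO 2 higher after quantile normalization.

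**Figure D2:**
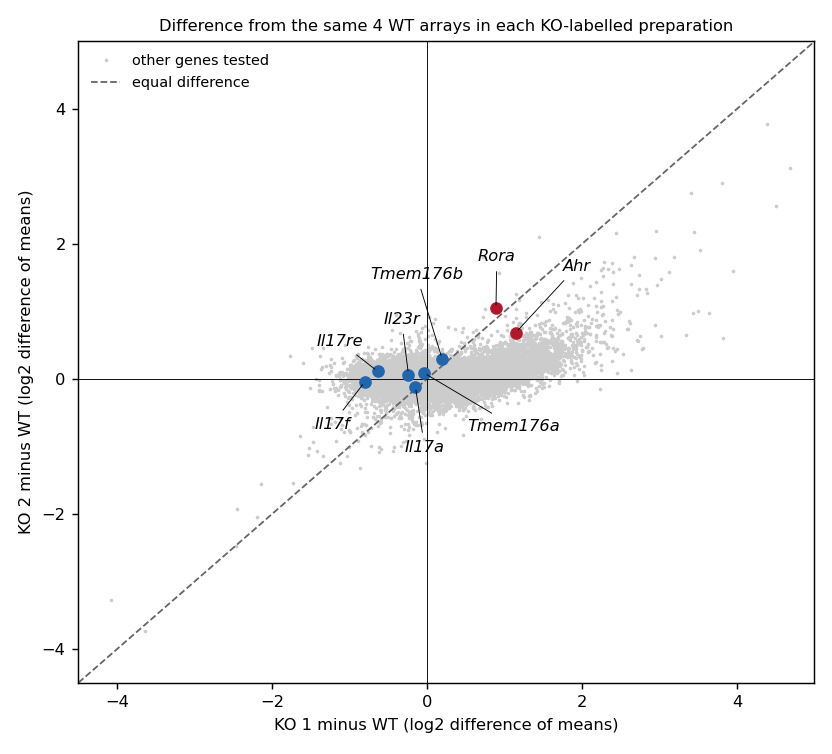
Difference from the mean of the 4 WT arrays in KO 1 (horizontal axis) and in KO 2 (vertical axis), in log2, for the 8 measured genes and for all other genes tested (grey); the axes share the WT arrays. Rora lies above the dashed line of equal differences at 0.89 and 1.05, Ahr below it at 1.14 and 0.69, and Il17f and Il17re lie left of 0 in KO 1 and near 0 in KO 2.

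Over the 8 arrays, the genes whose values ran most like those of Rora were S100a4, a calcium-binding protein of motile cells (Pearson r = 0.994), S100a11 of the same family (r = 0.986) and Atp6v0d2, a subunit of the vacuolar proton pump (r = 0.973). They were taken from 2125 named genes with an SD over 0.5 log2. S100a4 was at 7.78 and 7.70 in KO 1 and 7.70 and 7.97 in KO 2, against 6.57, 6.60, 6.57 and 6.60 in WT, so that its preparations too were nearly level. Its difference was 1.20 log2 (SE 0.21, adjusted p = 0.0477), that of S100a11 1.18 (SE 0.25, adjusted p = 0.151) and that of Atp6v0d2 1.77 (SE 0.30, adjusted p = 0.0465). Those most like Ahr were Plscr1, a phospholipid scramblase (r = 0.995), Gzmb, the protease granzyme B (r = 0.994), and Ttc39c (r = 0.993), all with KO 1 above KO 2 above WT. Rora and Ahr ran together at r = 0.888. The 8 arrays share 2 groups and 4 preparations, and any gene that sets those groups apart correlates with these.

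The receptor gene Il23r (probe set 10545154) was at 5.44 and 5.57 in KO 1 and 5.82 and 5.79 in KO 2, against 5.81, 5.65, 5.81 and 5.70 in WT. The groups overlapped, and the lowest values were those of KO 1. The difference was -0.09 log2 (SE 0.16, adjusted p = 0.778). Within each array, 47.7% to 55.5% of the olfactory receptor genes lay below Il23r in KO-labelled arrays, against 43.5% to 51.4% in WT, so that its probe set was in the middle of that background.

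The cytokine Il17a (probe set 10345032) had 5.92 and 6.01 in KO 1 and 6.01 and 6.0 in KO 2, against 6.09, 6.04, 6.13 and 6.21 in WT. Each KO-labelled array was below each WT array, with KO 1B and WT 1B nearly level. The difference was -0.13 log2 (SE 0.16, adjusted p = 0.71), and it was 0.02 after quantile normalization. Olfactory receptor genes below it made up 55.6% to 71.4% in KO-labelled and 54.0% to 66.3% in WT arrays. Il17a was thus within the range of that background in every array.

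Il17f (probe set 10353415) had 6.53 and 6.62 in KO 1 and 7.21 and 7.46 in KO 2, against 7.56, 7.09, 7.29 and 7.56 in WT. KO 1 lay below all other arrays and KO 2 within the WT range. The difference was -0.42 log2 (SE 0.30, adjusted p = 0.701). Olfactory receptor genes below Il17f made up 88.8% to 92.6% in KO-labelled and 90.7% to 93.9% in WT arrays, and these ranges overlapped. In Il17f KO 1 minus KO 2 was -0.76 (SE 0.19, adjusted p = 0.0074); after quantile normalization it was -0.50 and no longer called (adjusted p = 0.0956). The median olfactory receptor gene differed between KO 1 and KO 2 by -0.39, but Il17f lay near the top of those genes. Their 95th percentile was 6.83 and 6.95 in KO 1, against 7.64 and 7.66 in KO 2. The share below Il17f was 89.5% in both KO 1 arrays, and 88.8% and 92.6% in KO 2, so its place in that background was alike.

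Il17re (probe set 10540679), the interleukin 17C receptor chain, was at 6.83 and 7.02 in KO 1 and 7.53 and 7.82 in KO 2, against 7.68, 7.47, 7.44 and 7.67 in WT. The pattern was that of Il17f, with KO 1 lowest and KO 2 within or above the WT range. The difference was -0.26 (SE 0.28, adjusted p = 0.701), made of -0.64 in KO 1 and 0.11 in KO 2. KO 1 minus KO 2 was -0.75 (SE 0.17, adjusted p = 0.00562), and it stayed called at -0.65 after quantile normalization (adjusted p = 0.0361) and -0.49 after median centring (adjusted p = 0.0224). Il17re had 94.4% to 96.3% of olfactory receptor genes below it in the KO-labelled and 92.4% to 97.2% in the WT arrays.

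**Figure D3:**
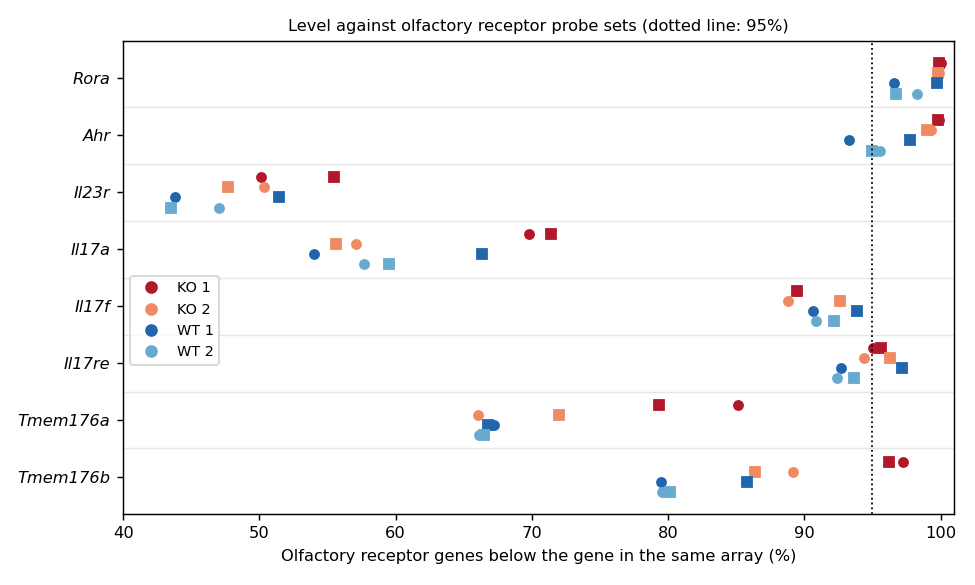
For each of the 8 measured genes, the share of 1027 olfactory receptor genes (%) with a lower log2 value in the same array, by preparation, with circles for arrays A and squares for arrays B. Rora is at 96.6% or above in every array, and Il23r and Il17a lie near the middle of that background. The share for Tmem176b is highest in KO 1, where the olfactory receptor genes themselves are lower.

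Tmem176b (probe set 10544596) was at 7.06 and 7.06 in KO 1 and 7.23 and 7.10 in KO 2, against 7.0, 6.66, 6.81 and 6.98 in WT. The groups did not overlap, with 0.25 log2 between their means (SE 0.22, adjusted p = 0.701), about the spread seen between the WT arrays. Relative to the olfactory receptor genes it stood higher in the KO-labelled arrays. The share of them below it was 97.3% and 96.2% in KO 1 and 89.2% and 86.4% in KO 2, against 79.5% to 85.8% in WT. KO 1 had the higher share but the lower log2 values. The 95th percentile of those genes was also lower there, at 6.83 and 6.95, against 7.64 and 7.66 in KO 2.

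Its neighbour Tmem176a (probe set 10538150) was at 6.37 and 6.25 in KO 1 and 6.34 and 6.55 in KO 2, against 6.55, 6.06, 6.37 and 6.44 in WT. The KO-labelled values lay within the WT range, and the difference was 0.02 (SE 0.23, adjusted p = 0.956). Although they share promoter sequence, the pair had a Pearson r of 0.55 over the 8 arrays, which share preparations.

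Other genes of the pathway fell into 5 lists with 41 measured genes. None was called, against 0.12% of all genes called higher and 0.015% lower; before adjustment 6 had p under 0.05 on the higher side and 1 on the lower, against 5.65% and 0.542% of all genes. The median difference of the 9 other Th17 factors was 0.69, from 1.07 for KO 1 and 0.31 for KO 2, against -0.06 over all genes. It was 0.33 after quantile normalization and 0.26 with array SD as a covariate, against -0.03 and 0.03 over all genes. Batf, an AP-1 factor that opens Th17 and tissue Treg loci, was at 10.66, 10.73, 9.12 and 9.16 in the KO-labelled arrays, against 7.66, 8.07, 7.95 and 7.77 in WT. Its difference of 2.05 log2 (SE 0.40) had an adjusted p of 0.0825, which became 0.0037 after quantile normalization and 0.0162 without WT 1B, with a range over alternatives of 2.1e-10 to 0.999. Maf, a factor of Il10 and Th17 genes, differed by 1.42 (SE 0.47, adjusted p = 0.565) and Bhlhe40, a factor of activated T cells, by 0.91 (SE 0.27, adjusted p = 0.455), each with KO 1 above KO 2 above WT. Stat3, which carries the interleukin 6 and 23 signals, differed by 0.69 (SE 0.33, adjusted p = 0.701), with overlapping arrays.

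Among 9 measured receptors and kinases for the cytokines that promote Th17 cells, the median difference was 0.28 and was -0.18 after quantile normalization. Il6ra, the interleukin 6 receptor chain, was at 8.77, 8.58, 8.66 and 8.66 in the KO-labelled arrays, against 9.33, 10.08, 9.71 and 9.59 in WT. The groups did not overlap, and the difference was the same in both preparations, -1.0 in KO 1 and -1.01 in KO 2. Over both it was -1.01 log2 (SE 0.32, adjusted p = 0.51), with an adjusted p of 0.00242 after quantile normalization and a range over alternatives of 2.8e-06 to 0.999. Il12rb1, the chain that Il23r pairs with, differed by 1.03 (SE 0.30, adjusted p = 0.448), split as 1.48 for KO 1 and 0.58 for KO 2. Tgfbr1, a receptor chain for transforming growth factor beta, differed by 1.15 (SE 0.44, adjusted p = 0.695), split as 1.99 for KO 1 and 0.30 for KO 2, and Tyk2, a kinase bound to Il12rb1, by 0.48 (SE 0.26, adjusted p = 0.701).

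**Figure D4:**
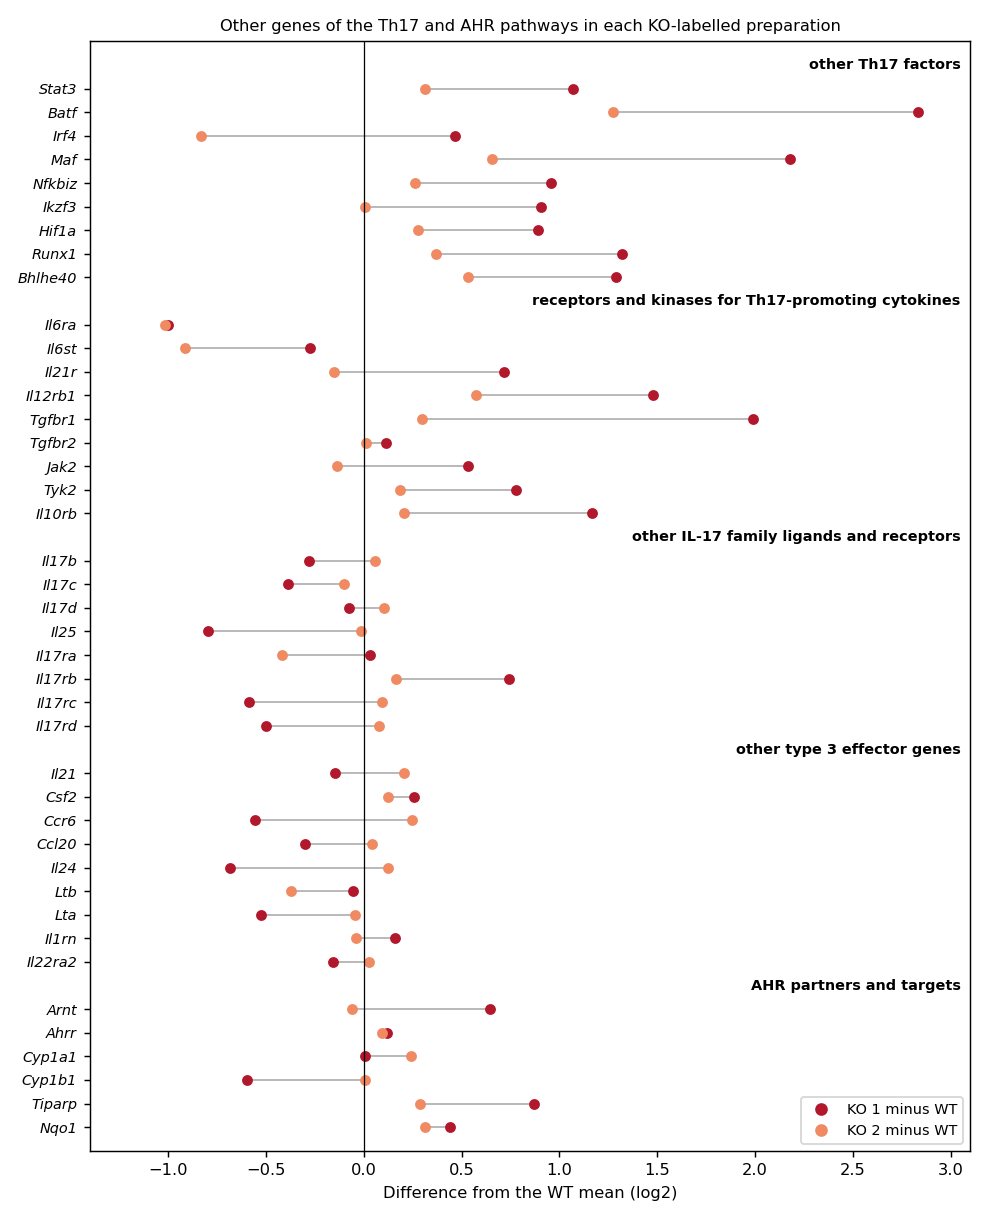
Difference from the WT mean in log2 for the 41 other genes measured, by list, with the dark point for KO 1 and the light point for KO 2, both set against the same 4 WT arrays. Batf is at 2.83 and 1.27, the points of Il6ra fall on each other at -1.0 and -1.01, and most genes of the lists of ligands and effectors are near 0 in KO 2.

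The lists of ligands and effector genes had medians below 0 that turned above 0 without KO 1. The median over all genes did the same, at -0.06 with all arrays and 0.02 without KO 1. It was -0.13 without KO 2 and 0.03 with array SD as a covariate. The 8 other IL-17 family ligands and receptors centred on a median of -0.20, made of -0.33 for KO 1 and 0.07 for KO 2, and 0.09 with array SD as a covariate. Il25, a ligand that drives type 2 responses, was at -0.41 (SE 0.26), Il17rb, its receptor chain, at 0.45 (SE 0.26), Il17c at -0.25 (SE 0.25) and Il17rc at -0.25 (SE 0.27), each with an adjusted p of 0.701. The 9 other type 3 effector genes had a median of -0.13, made of -0.16 for KO 1 and 0.04 for KO 2, and 0.08 with array SD as a covariate. Of these 9 genes, 6 were below the 95th percentile of the olfactory receptor genes in every array. Csf2, the cytokine GM-CSF, was at 0.19 (SE 0.19, adjusted p = 0.701), Lta, a lymphotoxin gene, at -0.29 (SE 0.25, adjusted p = 0.701), Il24, a cytokine of the interleukin 10 family, at -0.28 (SE 0.33, adjusted p = 0.709) and Ltb, the lymphotoxin partner, at -0.21 (SE 0.34, adjusted p = 0.749).

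Of the 6 partners and targets of AHR, with a median of 0.21, the one with arrays that did not overlap was Tiparp, an ADP-ribosyltransferase induced by AHR. Tiparp was at 7.64, 7.58, 7.06 and 6.99 in the KO-labelled arrays, against 6.66, 6.84, 6.87 and 6.59 in WT, a difference of 0.58 log2 (SE 0.24, adjusted p = 0.701). Nqo1, a quinone reductase, was at 0.38 (SE 0.18, adjusted p = 0.701) and Arnt, the partner of AHR, at 0.29 (SE 0.32, adjusted p = 0.701). Cyp1b1, a cytochrome P450 enzyme, was at -0.29 (SE 0.21, adjusted p = 0.701), and 4 of the 6 were below the 95th percentile of the olfactory receptor genes in every array.

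Markers of other cells that could carry type 3 genes were set beside these values. Of 6 measured markers of gamma delta T cells and group 3 innate lymphoid cells limma called 0, with 0 at an unadjusted p under 0.05, and their mean level was 6.57 to 6.75 in KO 1 and 7.33 to 7.43 in KO 2, against 7.08 to 7.44 in WT. Of 10 myeloid and dendritic cell markers limma called 0, and 8 were below the 95th percentile of the olfactory receptor genes in every array. Their mean level was 6.49 to 6.63 in KO-labelled and 6.37 to 6.57 in WT arrays. Cst3, the one with an unadjusted p under 0.05, was at 10.65, 10.55, 9.78 and 9.75 in KO-labelled arrays, against 8.82, 9.43, 9.19 and 8.60 in WT. Lyz2 too was higher without overlap, as were 6.67% of all genes. It was at 6.65 to 7.23 in KO-labelled and 6.39 to 6.63 in WT arrays, a difference of 0.35 (SE 0.26, adjusted p from limma 0.701). Of 5 NK cell markers limma called 0, with a mean level of 6.08 to 6.13 in KO 1 and 5.79 to 5.82 in KO 2, against 5.73 to 5.79 in WT. Nkg7, a granule protein of NK and cytotoxic T cells, was at 9.65 and 9.53 in KO 1 and 7.34 and 7.59 in KO 2, against 7.38, 7.14, 7.05 and 7.24 in WT, while Ncr1, Klrb1c, Klra8 and Eomes differed from WT by -0.34 to 0.04 in KO 1. The mean level of 6 B cell markers was 6.05 to 6.45 in KO-labelled and 6.15 to 6.47 in WT arrays, and that of both CD8 T cell markers 7.16 to 7.58 in KO-labelled and 7.4 to 7.73 in WT arrays. The part of these cells in the difference of Rora or Ahr was not tested. In sorted bulk cells, more cells with a transcript and more transcript per cell cannot be told apart.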

How the data were processed

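Expression was measured on 8 Affymetrix arrays. The deposited table holds log2 expression by probe set. RMA and Partek are named in the submitters' processing notes, without versions, and any filter of the authors is not stated there. RMA evens out arrays, yet their spread still differed, which can widen or narrow differences. The number of arrays limits the precision. The table was used as deposited, all 8 columns were matched to samples by accession, 0 columns were left unused, and 0 of 28 array pairs held identical values.

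Symbols were taken from GEO's annotation of the array, some of it dated: of 28768 probe sets, 21771 had 1 symbol, 1557 several and 5440 none. The set with the highest mean stood for each gene. KO-labelled and WT arrays were compared over 19937 genes with limma 3.58.1 in R 4.3.3, with a variance trend and preparation as a random block (consensus correlation 0.617). Calls were two-sided, at a Benjamini-Hochberg adjusted p under 0.05, and the fit was tested on simulated data. Of 50 genes changed by each size, it recovered 12% at 0.5, 62% at 1, 94% at 2 and 100% at 3 log2, with 11 false calls. A change near 1 log2 can thus be missed. The simulated spread between preparations equalled that between arrays and was not fitted to the correlation of these data. A fold is a power of the fitted log2 difference.

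The members and lists were chosen with earlier results of these data known. Named were all members, the 4 list genes lowest in p per list, and the 3 genes most like Rora and Ahr. Alternatives covered blocks, variance models, array weights, scaling, a filter at log2 6, probe set choice and left-out arrays. After the data were seen, fits without 1 of the KO preparations and without the random block were added. Il1r1 of the lists was not analysed here.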

Additional observations from a re-analysis of the deposited data

Results flagged for a closer look

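As deposited, the difference from WT was not the same in KO 1 and KO 2 for 4 genes, by the test of KO 1 minus KO 2 in the limma fit with 1 mean for each preparation. It was 0.46 log2 for Ahr (adjusted p = 0.0258), -0.31 for Il23r (adjusted p = 0.0462), -0.76 for Il17f (adjusted p = 0.0074) and -0.75 for Il17re (adjusted p = 0.00562), while 58.8% of all genes were called in that comparison. After quantile normalization 3 of these calls were lost, with Ahr at -0.15 (adjusted p = 0.447), Il23r at 0.0095 (adjusted p = 0.954) and Il17f at -0.50 (adjusted p = 0.0956). Median centring lost that of Il23r, at -0.0469 (adjusted p = 0.716), and Il17re kept its call under both. Within each array, the share of olfactory receptor genes below Il17re was nevertheless alike in KO 1 and KO 2. For Il17a 1 KO-labelled array, KO 1A at 5.92, stood apart from the other 3 at 6.0 to 6.01, with a gap of 0.837 of the whole range. Chance gives such a gap in about 1 of 20 groups, and 16 groups were looked at.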

How the results depend on the processing

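Rora and Ahr were higher in the KO-labelled arrays under all 26 alternatives run, by 0.65 to 1.06 and 0.65 to 1.14 log2, and each was called in 8. The 6 other genes kept their direction in 20 to 26 of theirs. The replicate block, preparation number as a fixed block, left Rora at 0.97 (adjusted p = 0.00466) and Ahr at 0.91 (adjusted p = 0.012) and moved calls over all genes to 620 higher and 57 lower; deviations of same-numbered arrays correlated at -0.69, 0.77, -0.42 and 0.68, and preparation 1 minus 2 in KO with that in WT at 0.416. Those of the arrays differ in sign and the labels give no shared origin, so the numbers were not taken to pair the arrays. With no block Rora stayed at 0.97 and Ahr at 0.91, both called, and with array weights Rora was called at 0.99. Quantile normalization called Ahr at 0.65. Without KO 1 Rora was called at 1.05 and Ahr at 0.69, and without KO 2 at 0.89 and 1.14. Both held with and without the random block. With array SD as a covariate Rora was called at 1.04 and Ahr at 0.70. The fitted correlation within preparations was -0.63 without KO 1, -0.64 without KO 2 and -0.37 with array SD. A negative value narrows the SE of KO minus WT. Where 1 KO preparation is left, no spread between KO preparations enters the fit, with or without the block. Calls from those fits therefore carry no measure of that spread.

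The 24 higher and 3 lower calls over all genes became 92 and 21 with no block, 45 and 7 with means of preparations, 61 and 5 with array weights, 248 and 131 after quantile normalization, 1599 and 884 with array SD as a covariate, 1124 and 341 without KO 1 (128 and 16 with no random block), 7234 and 9666 without KO 2 (5997 and 7381 with no random block) and 0 and 0 without WT 2. Higher calls were 14 with letter as a block, 12 after median centring and 8 without WT 1. Without 1 array they ranged over 13 to 51 higher and 2 to 6 lower. Members called higher became 2 with no block (0.461% of all genes) and with the replicate block (3.11%). With no random block they were 2 without KO 1 (0.642%) and 2 without KO 2 (30.1%). They were 1 with array weights (0.306%) or quantile normalization (1.24%). Without KO 1 they were 3 (5.64%), without KO 2 also 3 (36.3%), and with array SD as a covariate 3 (8.02%). The third member in these 3 fits was Tmem176b. Members called lower became 3 without KO 2 (48.5%), and 2 with no random block (37.0%). The members' calls without KO 2 lay near or below the shares of all genes.

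Signs turned in small differences. Il23r was 0.0469 after quantile normalization, 0.0039 after median centring, 0.0657 without KO 1 with and without the random block, and 0.0803 with array SD as a covariate. Il17a was 0.0199 after quantile normalization. With array SD as a covariate Il17f was 0.0184 and Il17re 0.15, and Il17re was 0.11 without KO 1. Tmem176a was -0.0591 with array weights, -0.0418 without KO 2, -0.0241 without WT 1 and -0.0935 to 0.14 without 1 array. KO 1 minus KO 2 turned for Rora, to 0.10 after median centring, and after quantile normalization to -0.15 for Ahr, 0.0095 for Il23r, 0.31 for Il17a, 0.23 for Tmem176a and 0.081 for Tmem176b, with 0.22, 0.13 and 0.15 for Il17a, Tmem176a and Tmem176b after median centring. The cause was not tested. The filter on mean level left no value for Il23r. Signal near background limits Il23r, Il17a, Il17f and Tmem176a, each below the 95th percentile of the olfactory receptor genes in every array. Tmem176b was below it in every WT array (79.5% to 85.8%) and in KO 2 (89.2% and 86.4%). Il17re lay to either side of it, at 94.4% to 96.3% in KO-labelled and 92.4% to 97.2% in WT arrays. Ahr did so in WT, at 93.3% to 97.8%.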
